A study of Rattus norvegicus with 17 samples.

Results

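Levels of 6 transient receptor potential (TRP) channel genes known from sensory neurons, Trpv1, Trpa1, Trpm8, Trpm3, Trpv2 and Trpm2, were followed through single neurons of rat dorsal root ganglia. The members were taken by gene name and make up 6 of the 32883 gene rows of the deposited count tables. The neurons came from the bilateral L4 to L5 ganglia of naive male Sprague Dawley rats of 200 g. After dissociation each was picked with a mouth pipette, and a modified Smart-seq2 reaction read the 3' ends of its RNA with unique molecular identifiers (UMIs). All batches carry the same description in the labels, which mention platings of 15 min and of 72 h and at least 5 rats per time point, and there is no treated or mutant group. The series asks how types of sensory neuron differ in their capacity to grow axons. Which plating time and which animals a batch came from is not known here. The p-values below therefore measure how differences between sets of neurons vary from batch to batch, and not between animals.

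Channel levels were compared between 8 sets of neurons, called gates, that were defined by the level of 1 or 2 marker genes. A cell entered a gate when each marker reached 10% of that marker's 99th percentile over all kept cells, and at least 20 CPM, the UMIs of the gene per 1000000 UMIs of the cell. Of 967 kept cells, 498 passed exactly 1 gate and were compared, 86 passed several and 383 passed none. The sets held 53 cells for Sst+Nppb, 29 for Trpm8, 245 for Clmp, 25 for Th, 65 for Ntsr1+Chrna3, 54 for Gzmbl3+Lpar3, 23 for Nmu+Lad1 and 4 for Pvalb+Vsnl1. The gate genes are known as marks of sensory neuron types: the peptides Sst and Nppb of itch neurons, Trpm8 of cold-sensing neurons, Th of low-threshold C-fibres and Pvalb of large muscle afferents. Near a threshold the separation was gradual, as the lowest Clmp level inside the gate was 30.9 CPM and the highest outside was 30.6 CPM. Trpm8 itself was at 21.7 CPM in the lowest cell inside its gate and at 21.4 CPM in the highest outside.

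TRP channels are cation channels of the cell membrane that open on heat, cold or irritant chemicals and depolarise the nerve ending. In sensory neurons Trpv1 is the receptor for capsaicin and noxious heat, and Trpa1 is the receptor for mustard oil and other electrophilic irritants. Trpm8 opens on menthol and cool temperatures, and Trpm3 opens on pregnenolone sulfate and heat. Trpv2, a close relative of Trpv1, opens in vitro at very high temperatures, and Trpm2 opens on ADP-ribose under oxidative stress.

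The start regions of 3 channel genes are shown first because they contrast a gene with UMIs in most cells, Trpv2, with its relative Trpv1 and the gate gene Trpm8, each found in fewer. They are RefSeq sequences of rat build GRCr8, 250 bases before and 50 bases after the gene start, on the plus strand, and 5 of the 6 members had an entry. The counts were made on build Rnor_6.0, so no coordinate below was used with them. The TATA-box letters TATAAA and the GC-box letters GGGCGG, which do not overlap, were searched on both strands, and capitals mark the match found.
Trpv1, chr10:58349686-58349985: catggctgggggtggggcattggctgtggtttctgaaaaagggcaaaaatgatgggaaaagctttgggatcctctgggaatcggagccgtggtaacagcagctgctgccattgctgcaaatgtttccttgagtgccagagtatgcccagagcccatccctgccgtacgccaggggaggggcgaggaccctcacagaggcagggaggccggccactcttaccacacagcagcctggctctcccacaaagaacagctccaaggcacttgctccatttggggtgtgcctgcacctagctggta
Trpv2, chr10:47771973-47772272: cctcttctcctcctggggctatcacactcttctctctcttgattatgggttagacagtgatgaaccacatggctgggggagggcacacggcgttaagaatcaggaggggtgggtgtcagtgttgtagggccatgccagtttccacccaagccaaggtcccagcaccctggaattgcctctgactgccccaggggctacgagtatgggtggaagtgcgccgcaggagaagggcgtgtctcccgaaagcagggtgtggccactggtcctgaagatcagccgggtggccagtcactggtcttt
Trpm8, chr9:96351433-96351732: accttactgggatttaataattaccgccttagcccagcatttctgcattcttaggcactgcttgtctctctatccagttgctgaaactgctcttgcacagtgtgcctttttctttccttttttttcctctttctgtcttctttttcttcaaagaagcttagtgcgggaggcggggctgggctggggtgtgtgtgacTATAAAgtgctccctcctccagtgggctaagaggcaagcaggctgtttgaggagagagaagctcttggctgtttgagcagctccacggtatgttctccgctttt
The Trpm8 window holds 1 TATAAA, and neither motif is in the letters of the Trpv1 and Trpv2 windows. Of 33469 rat windows of the same length, 14.2% hold TATAAA and 33.1% hold GGGCGG in either direction. CpG pairs number 6 in the Trpv1 window, 8 in the Trpv2 window and 5 in the Trpm8 window, against a median of 7. These counts describe the windows, and no binding was measured.

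The 16 batches used held 32 to 93 kept cells each and 3812280 to 26065847 UMIs before cells were filtered, and a kept cell had a median of 139374 UMIs. Cells of the Gzmbl3+Lpar3 gate were the deepest of those compared, with a median of 376760 UMIs, and cells of the Clmp gate the shallowest of the 7 gates with replicates, with 164098. The neuronal label held in every gate, as all 15 neuron markers, among them Tubb3 and Snap25, were detected in each. RNA of glia was present at a like level throughout, with 12 glial markers summing to between 874 and 1119 CPM in the 7 gates. UMIs of a gate were summed within a batch where it held at least 3 of its cells, which gave 55 sums of 318654 to 7205280 UMIs. A level below is the CPM of such sums, and since a sum mixes cells, fewer cells with a channel and less RNA of it per cell cannot be told apart in it. Cell counts are therefore given beside some of the levels. UMIs count 3' ends once per molecule, but their capture can differ between genes, so levels are compared within a gene and not between genes.

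Batches stood further apart in Trpv1 than in the other members relative to the mean, at 11.0 ± 11.1 CPM (SD, n = 16). Over all kept cells of a batch Trpv1 was at 34.5 CPM in batch 23, 37.2 CPM in batch 24 and 25.8 CPM in batch 28-1, and between 3.19 and 13.1 CPM in the other 13. Cells with at least 20 CPM of Trpv1 made up 27.9%, 31.2% and 26.7% of those 3 batches and 2.17 to 16.5% of each of the others. Trpv2, in contrast, kept to between 104 and 174 CPM over all 16 batches. Trpa1 ran from 2.81 to 19.2 CPM, Trpm8 from 1.23 to 17.4 CPM, Trpm3 from 3.77 to 21.4 CPM and Trpm2 from 0.503 to 3.93 CPM. The Trpv1 gate means that these batches touch are given below with and without batches 23, 24 and 28-1, a choice made after the data were seen. So are the Trpv1 fold changes printed for a gate against the others. Pairs of gates, shares of cells, co-detection and the split of Clmp cells by Trpv1 are given only with these batches.

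**Figure D1:**
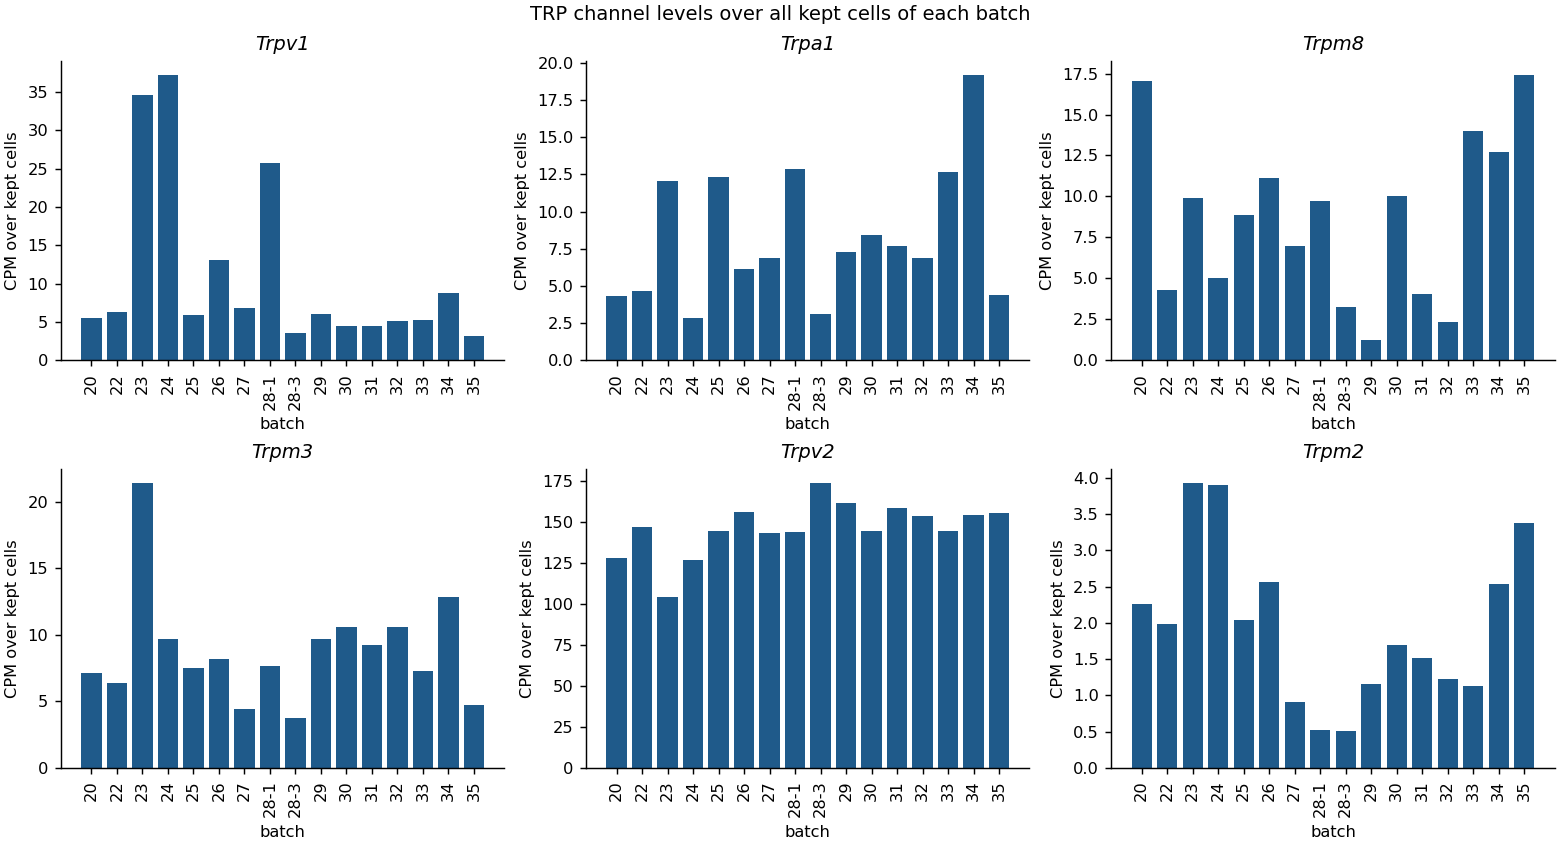
CPM of each TRP channel gene over all kept cells of a batch (bars, linear axes from 0, 1 panel per gene, 16 batches). Trpv1 stands at 25.8 to 37.2 CPM in batches 23, 24 and 28-1 and at 13.1 CPM or less elsewhere, while Trpv2 stays between 104 and 174 CPM.

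Across all kept cells, 1 channel was widespread and the other 5 were concentrated in few cells. Trpv2 had at least 1 UMI in 854 of 967 cells (88.3%, exact Clopper-Pearson 95% interval 86.1 to 90.3%), and 836 cells reached 20 CPM. Trpm3 had a UMI in 37.1% of cells, Trpv1 in 27.6%, Trpa1 in 25.9%, Trpm8 in 22.9% and Trpm2 in 14.6%, and their median over cells was 0 CPM. Only 106, 99, 120, 77 and 17 of the 967 cells reached 20 CPM of Trpm3, Trpv1, Trpa1, Trpm8 and Trpm2. Counts at this level depend on depth too, as 1 UMI alone reaches 20 CPM in the shallowest cells. In batch 28-1, with a median of 61416 UMIs, 26.7% of cells had a Trpv1 UMI and 26.7% reached 20 CPM. The 49 cells richest in a channel (5% of the cells) held 77.0% of the summed CPM of Trpm8, 76.1% of Trpm2, 66.9% of Trpv1, 54.3% of Trpa1 and 49.5% of Trpm3, but 14.9% of Trpv2. Having at least 1 UMI is a weak mark at this depth, as it can go with a low level. Cells of the Nmu+Lad1 gate, at a median of 331524 UMIs, had UMIs of Trpv1 in 5 of 23 and of Trpm8 in 7 of 23. These channels were at 1.94 and 2.72 CPM over the gate, with up to 7 and 8 UMIs in a cell. Trpa1, at 2.07 CPM over the gate, had all its 16 UMIs in 1 of 23 cells, at 25.7 CPM. Intervals on shares count cells as independent and cover counting error only.

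**Figure D2:**
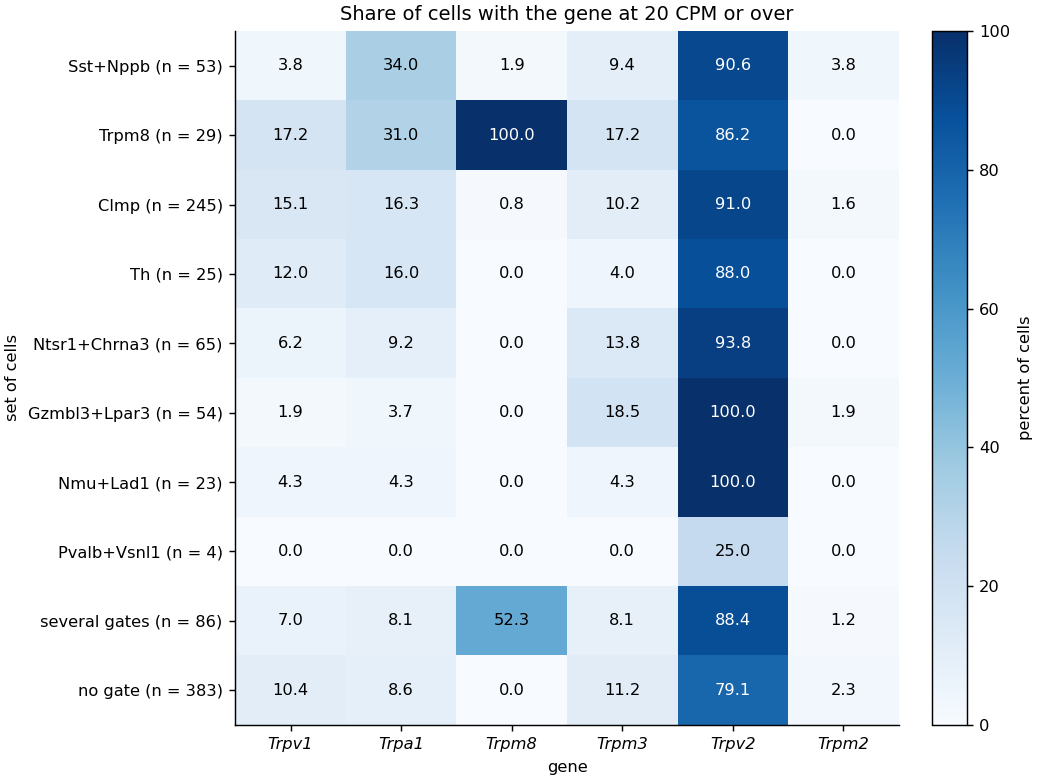
Percent of cells with at least 20 CPM of each TRP channel gene (columns) in each gate and in cells of several gates or none (rows, with their number of cells; colour scale 0 to 100%). Trpa1 is marked in 34.0% of Sst+Nppb cells and 31.0% of Trpm8 cells, Trpv1 in 17.2% of Trpm8 cells and 15.1% of Clmp cells, and Trpv2 in most cells of every gate but Pvalb+Vsnl1.

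Trpa1 was higher in Sst+Nppb neurons, and this had the smallest adjusted p of the 28 tests of a member in a gate, of which 3 passed. The 9 Sst+Nppb sums ran from 6.43 to 39.5 CPM with a median of 17.9, and their mean was 20.1 ± 11.8 CPM (SD, n = 9), against a mean of 9.10 CPM over the other 6 gates. All 9 held Trpa1 UMIs, whereas sums at 0 occurred in the Trpm8, Nmu+Lad1, Ntsr1+Chrna3 and Gzmbl3+Lpar3 gates. The range of the Sst+Nppb sums overlapped that of every other gate with replicates. The log2 fold change was 1.81 ± 0.49 (SE, edgeR quasi-likelihood test, adjusted p = 0.00888), with the Sst+Nppb sum higher in 8 of 9 batches. Of all 12048 genes tested, 7.69% were called higher in this comparison, and Trpa1 was the 1 member called. In single cells Trpa1 had a UMI in 33 of 53 Sst+Nppb cells (62.3%, exact interval 47.9 to 75.2%), and 18 of them reached 20 CPM. With cells thinned to 30000 UMIs it was found in 17 of 42 (40.5%, exact interval 25.6 to 56.7%), against 6 of 27 thinned Trpm8 cells (22.2%), 4 of 20 Th cells (20.0%), 33 of 203 Clmp cells (16.3%), 5 of 61 Ntsr1+Chrna3 cells (8.20%), 1 of 22 Nmu+Lad1 cells (4.55%) and 2 of 51 Gzmbl3+Lpar3 cells (3.92%). At full depth the Trpm8 gate came close to Sst+Nppb in cells with 20 CPM of Trpa1, at 9 of 29 (31.0%) against 34.0%. Among all 73 cells that passed the Trpm8 gate, with or without others, 14 (19.2%) reached it.

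The other gates formed a slope in Trpa1 whose neighbours were not separated. Trpm8 sums averaged 18.7 ± 24.8 CPM (n = 5), of which that of batch 30 was at 60.4 CPM and that of batch 24 at 0. In the sum of batch 30, 1 cell held 50 of the 57 UMIs. Th sums followed at 13.0 ± 8.05 CPM (n = 4), Clmp sums at 11.1 ± 9.66 (n = 15) and Nmu+Lad1 sums at 6.69 ± 11.6 (n = 3). The Nmu+Lad1 mean came from 1 cell of batch 29, which held all 16 UMIs of that sum (20.1 CPM), as the 2 other sums were at 0. Ntsr1+Chrna3 sums averaged 3.32 ± 3.28 CPM (n = 12) and Gzmbl3+Lpar3 sums 1.84 ± 2.63 CPM (n = 7). No pair of neighbours in this order passed, with adjusted p-values of 0.675 to 0.977. Of the 21 pairs of gates 2 did: Sst+Nppb against Ntsr1+Chrna3 (2.85 ± 0.62, adjusted p = 0.00133, 10.6% of all genes called) and Sst+Nppb against Gzmbl3+Lpar3 (3.03 ± 0.89, adjusted p = 0.0304, 5.78% called). Against the mean of the other gates, Ntsr1+Chrna3 was at -1.52 ± 0.53 (adjusted p = 0.116, lower in 11 of 12 batches), where 2.64% of all genes were called in either direction. It passed with DESeq2 (-1.56, adjusted p = 0.0325) and without a low-count filter (-1.52, adjusted p = 0.0210).

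**Figure D3:**
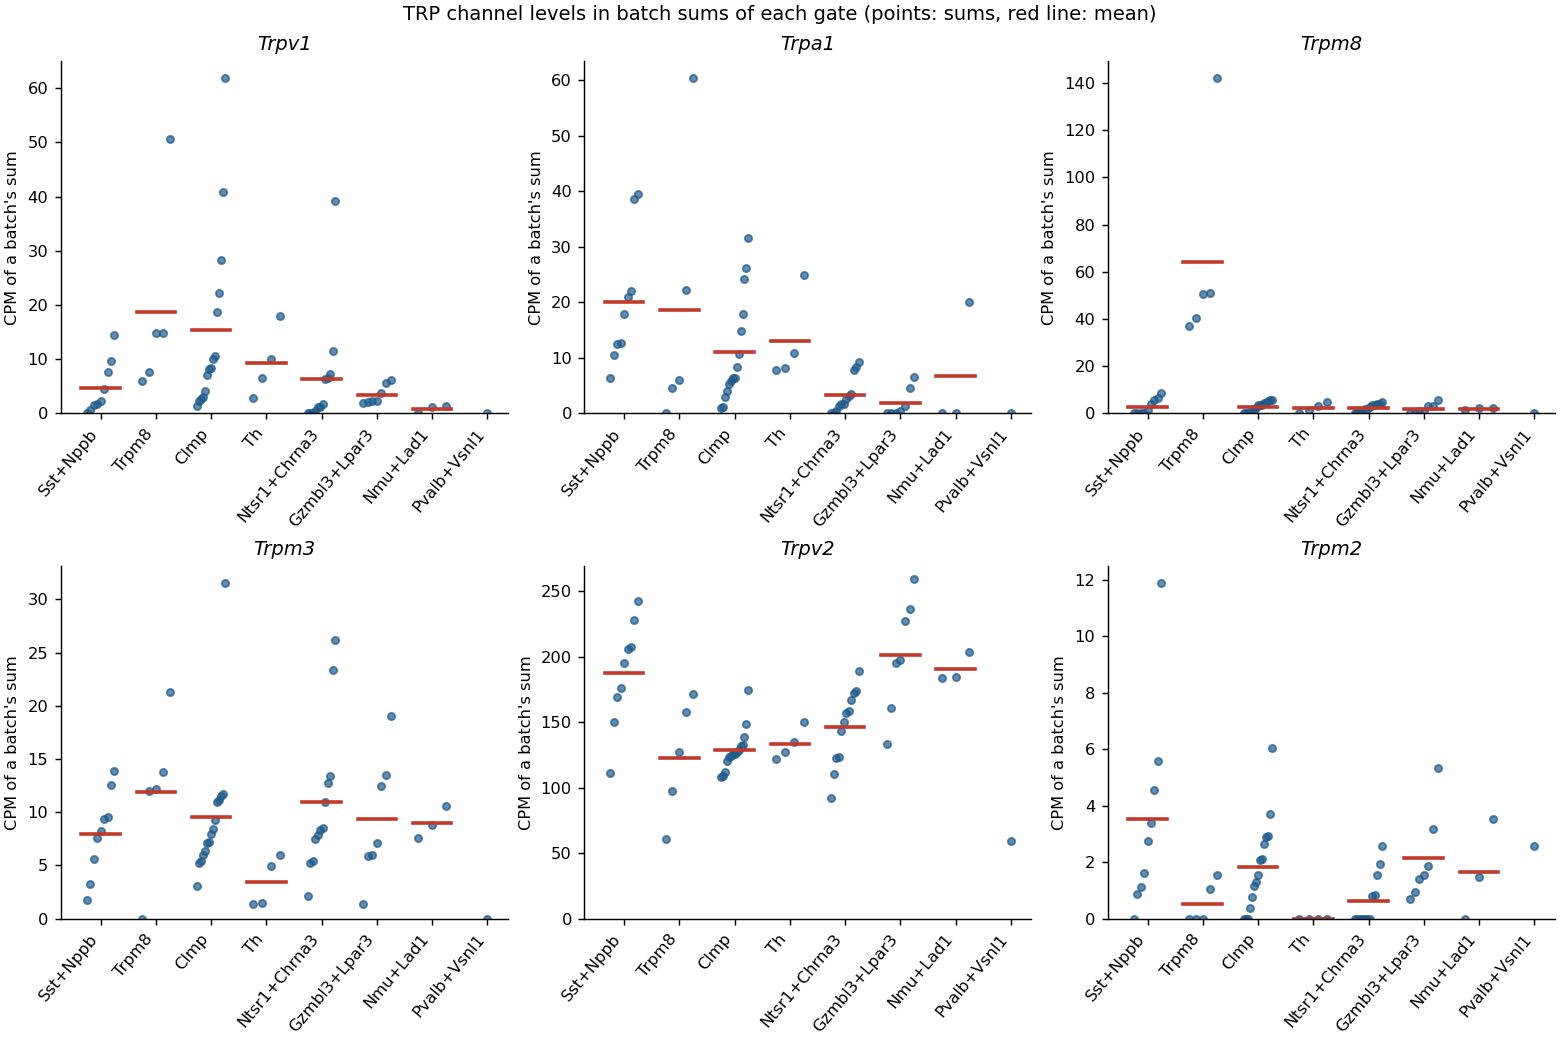
CPM of each TRP channel gene in the UMI sums of each gate (points, 1 per batch with at least 3 cells of the gate; red lines, means; linear axes from 0, 1 panel per gene). The 9 Sst+Nppb sums lie between 6.43 and 39.5 CPM of Trpa1, and the 7 Gzmbl3+Lpar3 sums lie between 133 and 259 CPM of Trpv2.

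The mean CPM of Trpv1 was highest in Trpm8 and Clmp neurons, but Clmp was not above Th with batch in the fit. Of the 7 gates 0 passed the edgeR test. At an unadjusted p under 0.05 there were 4 gates, and DESeq2 called 2. The 15 Clmp sums ran from 1.47 to 61.9 CPM with a median of 8.36 and a mean of 15.3 ± 17.0 CPM (SD, n = 15), against a mean of 7.25 CPM over the other 6 gates. The highest were batch 23 at 61.9 CPM and batch 28-1 at 40.9 CPM. The log2 fold change was 1.35 ± 0.49 (adjusted p = 0.0627, higher in 11 of 14 batches), where 12.4% of all genes were called in either direction. Without batches 23, 24 and 28-1 it was 1.29 (adjusted p = 0.0799), and the Clmp mean was 9.80 ± 8.38 CPM (n = 13). Leaving out 1 batch at a time it ran from 0.81 to 1.52, and it passed without batch 24, 28-3 or 30. It passed under 5 of the 11 alternatives that gave a value, among them DESeq2 (1.39, adjusted p = 0.0168). The gate is not uniform in this channel, as 37 of its 245 cells reached 20 CPM of Trpv1 and 165 had no UMI of it. Of all 99 kept cells at 20 CPM of Trpv1, 40 passed no gate, which is 10.4% of the cells without a gate against 15.1% of Clmp cells. Of the 20 kept cells at 100 CPM, 14 passed no gate and 4 were Clmp cells.

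In Trpm8 neurons, Trpv1 sums were at 7.73, 50.6, 14.8, 14.8 and 6.01 CPM. The sum of 50.6 CPM was that of batch 24. Their mean was 18.8 ± 18.2 CPM (n = 5), against 6.68 CPM over the other gates, with a log2 fold change of 1.92 ± 0.75 (adjusted p = 0.291, higher in 5 of 5 batches). In that comparison 0.199% of all genes were called in either direction. Without batches 23, 24 and 28-1 the mean was 10.9 ± 4.65 CPM (n = 4) and the log2 fold change 1.498 (adjusted p = 0.447). Th sums stood at 9.32 ± 6.44 CPM (n = 4), against 8.26 CPM, with a log2 fold change of 1.78 ± 0.81 (adjusted p = 0.372), higher in 4 of 4 batches, where 0.133% of all genes were called. Without those batches the Th fold change was 1.73 (adjusted p = 0.363), and the Trpm8, Clmp and Th means were 10.9, 9.80 and 9.32 CPM. Clmp against Th was at -0.36 ± 0.83 (adjusted p = 0.914). Trpv1 had a UMI in 11 of 25 Th cells (44.0%), 11 of 29 Trpm8 cells (37.9%) and 80 of 245 Clmp cells (32.7%). Thinned to 30000 UMIs, these were 5 of 20 (25.0%), 5 of 27 (18.5%) and 35 of 203 (17.2%).

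The remaining gates had lower means of Trpv1. Ntsr1+Chrna3 sums averaged 6.30 ± 11.0 CPM (n = 12), but their median was 1.49 CPM and batch 26 alone was at 39.2 CPM. There 1 cell held 47 of the 55 UMIs. Sst+Nppb sums averaged 4.74 ± 4.91 CPM (n = 9) and Gzmbl3+Lpar3 sums 3.47 ± 1.81 CPM (n = 7). Without batches 23, 24 and 28-1 these means were 5.33 ± 4.89 CPM (n = 8) and 3.66 ± 1.90 CPM (n = 6), and the Ntsr1+Chrna3 sums did not include them. In the 3 Nmu+Lad1 sums Trpv1 had 1, 1 and 0 UMIs, for a mean of 0.879 ± 0.774 CPM, against 9.66 CPM over the other gates. Their log2 fold change of -4.02 ± 1.36 did not pass (adjusted p = 0.116, lower in 3 of 3 batches; 2.06% of all genes called), and without those 3 batches it was -3.95 (adjusted p = 0.104). Clmp against Nmu+Lad1 was the 1 pair of 21 to pass (4.60 ± 1.41, adjusted p = 0.0477, 4.38% of all genes called). Neighbours in the order had adjusted p-values of 0.345 to 0.952.

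**Figure D4:**
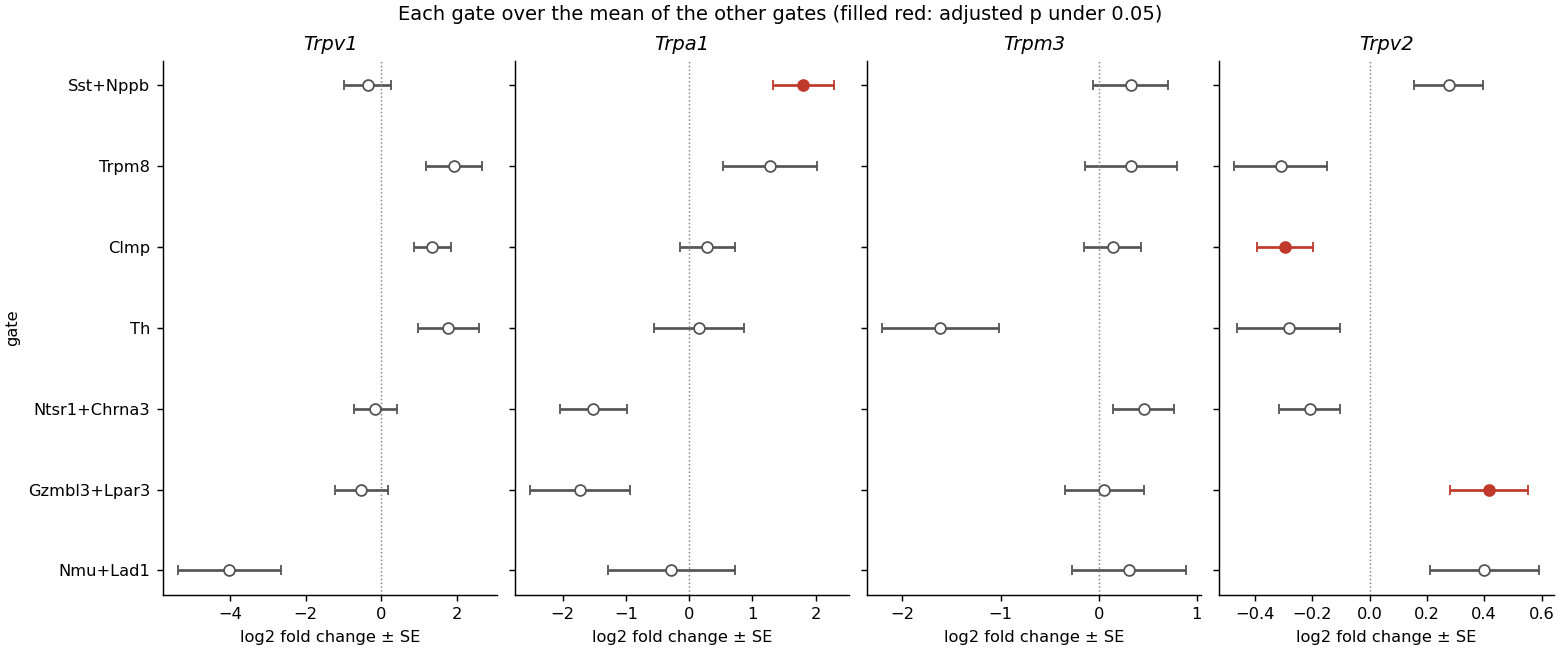
Log2 fold change of each gate over the mean of the other gates (points, with SE as bars; 1 panel per tested gene, gates down the page; filled red where the adjusted p is under 0.05). Trpa1 in Sst+Nppb (1.81) and Trpv2 in Gzmbl3+Lpar3 (0.42) lie above 0, and Trpv2 in Clmp (-0.29) lies below it.

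Trpv2 was high in all gates with replicates and differed between them by small amounts. Gzmbl3+Lpar3 sums were highest, at 133 to 259 CPM with a mean of 201 ± 44.0 CPM (SD, n = 7), against 152 CPM over the other gates. The log2 fold change was 0.42 ± 0.14 (adjusted p = 0.0419), higher in 7 of 7 batches, where 5.8% of all genes were called higher. Clmp sums were lower, at 108 to 175 CPM with a mean of 129 ± 16.7 CPM (n = 15), against 164 CPM. Their log2 fold change was -0.29 ± 0.10 (adjusted p = 0.0375), lower in 11 of 14 batches, where 4.92% of all genes were called lower. The Gzmbl3+Lpar3 sums overlapped those of every other gate with replicates, and the Clmp sums overlapped all but those of Nmu+Lad1, which lay above them. Both calls lie close to the threshold: leaving out 1 batch at a time, Gzmbl3+Lpar3 passed in 9 of 16 fits and Clmp in 4 of 16. Gzmbl3+Lpar3 did not pass without batch 24 (0.29, adjusted p = 0.162), 28-1, 28-3, 29, 31, 32 or 33, and Clmp passed only without batch 20, 22, 24 or 34 (without batch 29 its adjusted p was 0.204). Without batches 23, 24 and 28-1 together, Gzmbl3+Lpar3 was at 0.30 (adjusted p = 0.141) and Clmp at -0.31 (adjusted p = 0.0178). Thinned to 30000 UMIs per cell, Gzmbl3+Lpar3 was at 0.84 (adjusted p = 0.00157) and Clmp at -0.28 (adjusted p = 0.182).

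Nmu+Lad1 sums of Trpv2 stood at 184, 203 and 184 CPM and Sst+Nppb sums at 187 ± 40.6 CPM (n = 9), followed by Ntsr1+Chrna3 at 147 ± 29.0 CPM (n = 12), Th at 133 ± 12.4 CPM (n = 4) and Trpm8 at 123 ± 45.0 CPM (n = 5). The step from Sst+Nppb to Ntsr1+Chrna3 was the 1 step between neighbours that passed (0.42 ± 0.14, adjusted p = 0.0386). Of the 21 pairs 5 passed, and 3 of them set Gzmbl3+Lpar3 above Clmp, Ntsr1+Chrna3 and Trpm8. These were Clmp against Gzmbl3+Lpar3 (-0.61 ± 0.15, adjusted p = 0.00205, 18.2% of all genes called), Ntsr1+Chrna3 against Gzmbl3+Lpar3 (-0.54 ± 0.15, adjusted p = 0.0217, 5.64% called) and Trpm8 against Gzmbl3+Lpar3 (-0.62 ± 0.19, adjusted p = 0.0368, 7.2% called). The fifth was Sst+Nppb against Clmp (0.49 ± 0.13, adjusted p = 0.00613, 15.0% called). Immune cells are known to express Trpv2, and the 8 immune markers summed to 26.2 to 143 CPM in Gzmbl3+Lpar3 sums (Ptprc and C1qb at 0) and to 18.8 to 199 CPM in Sst+Nppb sums (C1qb at 0). In Clmp sums they reached 7.36 to 51.5 CPM (Ptprc at 0) and in Trpm8 sums 1.06 to 54.7 CPM (Ptprc, C1qa and C1qb at 0). In Th sums they reached 4.90 to 116 CPM (Ptprc, Lyz2, Aif1, C1qa and C1qb at 0), and in Ntsr1+Chrna3 sums 3.82 to 121 CPM (Ptprc and Aif1 at 0). The Nmu+Lad1 sums, next to the highest in Trpv2, held 1.46 to 22.3 CPM of these markers (C1qa and C1qb at 0). Their part in the Trpv2 and Trpa1 differences was not tested.

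In the Pvalb+Vsnl1 gate, whose 4 cells allow no test, Trpv2 had a UMI in 2 cells and 58.1 CPM over the set. Trpv1, Trpa1, Trpm8 and Trpm3 had no UMI in any of the 4 cells, which allows up to 75% of cells with a UMI by the limit of 3 counts (exact upper bound 60.2%). Among all 13 cells that passed this gate, with or without others, Trpv2 had a UMI in 10, Trpv1 in 2, Trpa1 in 1, Trpm8 in 2 and Trpm3 in 2.

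For Trpm3, 0 of 7 gates passed the edgeR test, 1 had an unadjusted p under 0.05 and DESeq2 called 0. Its means lay between 7.97 ± 3.99 CPM (SD, n = 9) in Sst+Nppb sums and 11.9 ± 7.65 CPM (n = 5) in Trpm8 sums for 6 of the gates. Th neurons were the exception in level: their 4 sums were at 5.98, 4.90, 1.43 and 1.38 CPM (mean 3.42 ± 2.37), against 9.76 CPM over the other gates, and lower in 4 of 4 batches. The log2 fold change of -1.62 ± 0.60 had an adjusted p of 0.248. Of the 21 pairs of gates 0 passed in edgeR, and 6 had an unadjusted p under 0.05. Single cells reached high values, up to 591 CPM in a cell that passed no gate and 375 CPM in a Gzmbl3+Lpar3 cell, and 18.5% of Gzmbl3+Lpar3 cells reached 20 CPM.

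Trpm8 defined a gate and bounded the others, so its levels are described without a test. Its sums in the Trpm8 gate were 142, 50.6, 37.1, 50.8 and 40.6 CPM (mean 64.3 ± 44.0, n = 5), and the other gates averaged 1.99 to 2.91 CPM. Of the 73 cells that passed the Trpm8 gate, 44 also passed another, and for 33 of them that was Clmp. Cells of several gates held 1161 of all 2000 Trpm8 UMIs, at up to 465 CPM in a cell, and those of the Trpm8 gate alone held 390. Those 1161 UMIs are outside the sets compared here, since a compared cell passes 1 gate. Trpa1 reached 20 CPM in 9 of the 29 Trpm8 cells and Trpv1 in 5. Among all 73 cells, Trpa1 reached it in 14 and Trpv1 in 10.

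Trpm2 was the sparsest member, with 431 UMIs in all, and fell under the count filter (filterByExpr with a minimum count of 10), so it has no main test. Sst+Nppb sums averaged 3.53 ± 3.62 CPM (SD, n = 9), against a mean of 1.13 CPM over the other 6 gates, and were higher in 6 of 9 batches. The 9 sums held 15, 9, 1, 1, 0, 3, 5, 8 and 2 UMIs, of which 15 were in batch 20. With no count filter the log2 fold change was 2.78 ± 0.86 (adjusted p = 0.0204), where 4.43% of all genes were called higher. Gzmbl3+Lpar3 sums averaged 2.14 ± 1.63 CPM, Clmp sums 1.84 ± 1.66 CPM and Nmu+Lad1 sums 1.66 ± 1.77 CPM. The 4 Th sums held no UMI. In single cells it was found in 35.8% of Sst+Nppb cells, and in 7.14% once they were thinned.

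At full depth, channels met in the same cell more often than their single shares gave for all 15 pairs of members, and in thinned cells the ratios spread from 0.926 to 2.02. Trpv1 and Trpa1 shared 108 cells, against 69.0 expected from the product of their shares, and the count was above the expected one in 16 of 16 batches. Over the 15 pairs of members the ratio of observed to expected cells ran from 1.09 for Trpm3 and Trpv2 to 1.64 for Trpv1 and Trpm2. A deeply sequenced cell shows more genes of any kind. With 771 cells thinned to 30000 UMIs, Trpv1 and Trpa1 shared 23 cells, against 14.0 expected, a ratio of 1.64, but were above the expected count in only 9 of 16 batches. Trpa1 and Trpm3 then shared 14 cells, against 15.1 expected. Within gates, where the expected count is the sum over the gates, thinned Trpv1 and Trpa1 shared 15 cells, against 9.19, the highest ratio of the 15 pairs at 1.63. The lowest were 0.53 for Trpm3 and Trpm2 and 0.85 for Trpa1 and Trpm3, and Trpa1 and Trpm8 lay at 0.97. At the level of 20 CPM, Trpv1 and Trpa1 overlapped in 21 cells, against 12.3 expected, and Trpv1 and Trpm3 in 22, against 10.9. These expected counts pool the batches, and the cells at 20 CPM were taken at full depth. Batches 23 and 24 had the highest shares of cells at 20 CPM both of Trpv1 and of Trpm3 (25.6% and 25.0% for Trpm3), and their part in the overlap was not tested. At least 3 members were found in 355 of 967 cells at full depth and in 79 of 771 thinned cells, and all 6 in 8 and 0 cells.

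**Figure D5:**
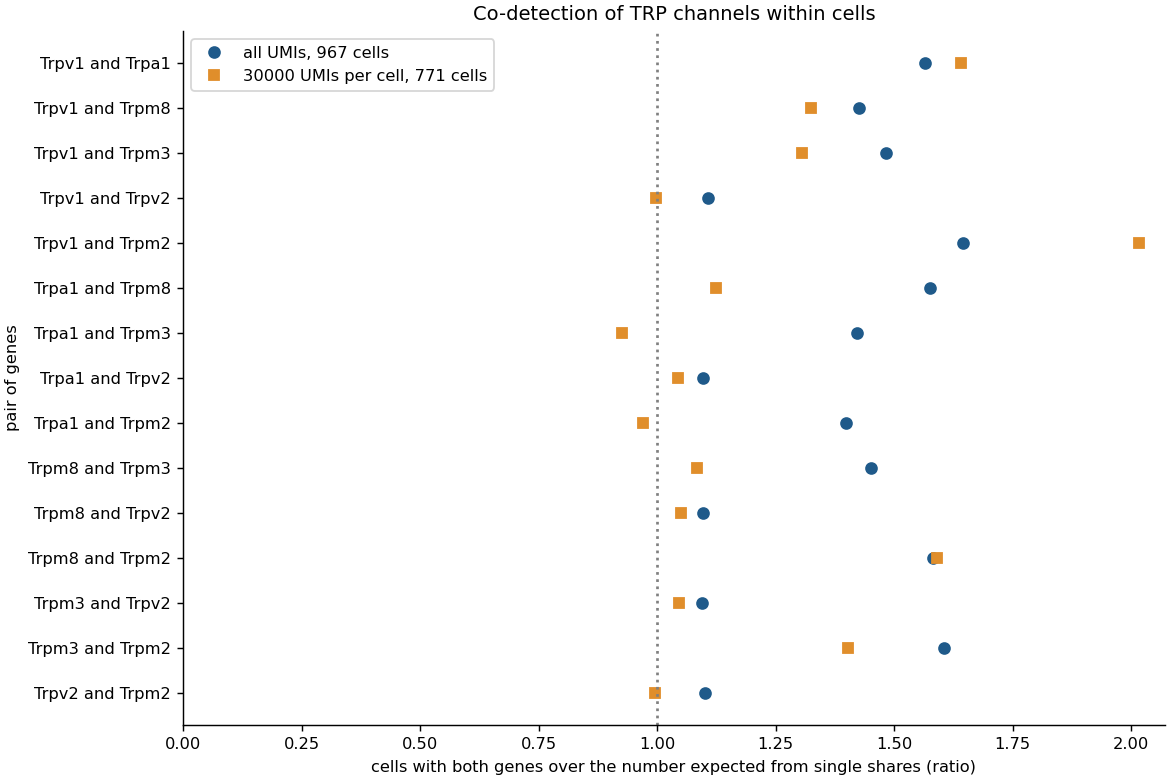
Cells with UMIs of both genes divided by the number expected from the 2 single shares (x axis, linear ratio), for the 15 pairs of members over all kept cells, with all UMIs (circles) and with 30000 UMIs per cell (squares). Ratios run from 1.09 to 1.64 with all UMIs; in thinned cells Trpa1 and Trpm3 lie at 0.93.

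Within the Clmp gate, cells with at least 20 CPM of Trpv1 were set beside cells with none. Trpv2 was at 149 CPM in the 37 Trpv1-rich cells and 112 CPM in the 165 without, and higher in 10 of the 11 batches that held both. Trpa1 was at 16.1 and 6.21 CPM in the same sets, yet higher in only 4 of 11 batches. Trpm3 was at 14.0 and 6.79 CPM, and was higher in 5 and lower in 4 of the 11. The Trpv1-rich cells had a median of 251846 UMIs and the others of 101121. Thinned to 30000 UMIs, 34 Trpv1-rich cells and 126 cells without Trpv1 were left. Trpv2 then had a UMI in 100% and 84.1% of them, Trpm3 in 26.5% and 7.14%, and Trpa1 in 23.5% and 11.1%.

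The rest of the TRP family was mostly low. Exceptions were Mcoln1, Trpm7, Trpc1 and Trpm4, with UMIs in 69.8%, 67.2%, 59.9% and 58.1% of kept cells. Among the 6 members only Trpv2 was found in more cells than these. Of 23 listed relatives 22 had a gene row and 10 were tested. Trpm7, a channel fused to a kinase, was at 25.3 to 36.1 CPM over the gates, and the lysosomal channel Mcoln1 at 23.4 to 43.6 CPM. The skin keratinocyte channel Trpv3 and the osmosensor Trpv4 were rare, with UMIs in 1.03% and 1.96% of kept cells. In Clmp neurons 1 relative was higher and 1 lower, where 7.5% and 4.92% of all genes were called higher and lower, and in the 6 other comparisons 0 of 10 passed in edgeR or DESeq2, with 0 to 3 at an unadjusted p under 0.05. The epithelial calcium channel Trpv6 was at 4.64 ± 3.50 CPM in Clmp sums (n = 15), against 2.50 CPM over the other gates (log2 fold change 2.09 ± 0.62, adjusted p = 0.018). Its highest mean was not in Clmp but in Nmu+Lad1 sums, at 5.43 CPM, and its lowest was in Gzmbl3+Lpar3 sums, at 0.334 CPM. The median of the 10 was 0.20 in Clmp, against 0.05 for all genes tested.

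Of 46 listed partners and regulators of TRP channels 38 were tested, and their calls are given by gate beside the share of all genes called. In Clmp neurons 10 were higher and 4 lower, where 7.5% of all genes were called higher and 4.92% lower (median log2 fold change 0.13, against 0.05 for all genes). Tmem100, an adaptor between Trpa1 and Trpv1, was at 4.94 ± 4.00 CPM, against 0.417 CPM (4.81 ± 0.68, adjusted p = 2.91e-06). The sodium pump subunit Atp1b1 was at 223 ± 82.8 CPM, against 82.2 CPM (2.91 ± 0.31, adjusted p = 1.54e-09). Lower in Clmp neurons were the protease receptor F2rl1, at 2.89 ± 1.87 CPM, against 14.0 CPM (-1.90 ± 0.47, adjusted p = 0.0032), and the kinase Prkce, at 9.93 ± 6.39 CPM, against 16.7 CPM (-0.88 ± 0.26, adjusted p = 0.0162).

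In Sst+Nppb neurons, the gate with the most Trpa1, 4 of the 38 were higher and 3 lower, where 7.69% of all genes were called higher and 5.0% lower, 12.7% in all (median -0.04, against 0.00 for all genes). F2rl1 was at 23.0 ± 14.0 CPM (n = 9), against 10.6 CPM (1.53 ± 0.48, adjusted p = 0.0249), and the prostacyclin receptor Ptgir at 297 ± 72.7 CPM, against 165 CPM (1.07 ± 0.21, adjusted p = 0.000316). The phospholipase Plcb4 was at 9.59 ± 8.66 CPM, against 37.9 CPM (-2.14 ± 0.41, adjusted p = 0.000214). Gzmbl3+Lpar3 neurons had 5 higher and 4 lower, where 5.8% of all genes were called higher and 3.69% lower, 9.49% in all (median -0.0039, against 0.05). The prostaglandin receptor Ptger2 was at 25.5 ± 13.8 CPM there (n = 7), against 4.84 CPM (3.94 ± 0.75, adjusted p = 0.000422). It was also called in Nmu+Lad1 neurons, at 20.3 ± 8.96 CPM (n = 3), against 5.70 CPM (4.11 ± 0.90, adjusted p = 0.00851), where 1 of the list was higher and 3 lower and 1.15% and 0.913% of all genes were called higher and lower (median 0.08, against -0.04). Ntsr1+Chrna3 neurons had 2 higher and 1 lower, where 1.73% of all genes were called higher and 0.913% lower (median 0.05, against 0.05), the larger rise being that of the neurotrophin receptor Ngfr (0.81 ± 0.19, adjusted p = 0.0135). In Trpm8 neurons the 1 call was Atp1b1 (3.83 ± 0.46, adjusted p = 1.81e-06; median 0.06, against 0.00), where 0.191% of all genes were called higher and 0.0083% lower. In Th neurons edgeR called 0, with 6 at an unadjusted p under 0.05 and 1 called by DESeq2 (median -0.05, against -0.02), where 0.083% of all genes were called higher and 0.0498% lower.

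The genes whose levels followed each channel most closely over the 55 sums were named by the Pearson correlation of log2(CPM + 1), as a description. The sums share batches, gates and depth, so these values are not independent. For Trpv1 they were Hsp90b1 (r = 0.64), Trim37 (0.57) and Arhgap28 (0.56). Trpa1 was followed by Peg3 (0.67), Mal2 (0.63) and the glutamate transporter Slc17a6 (0.63), and Trpv2 by Grk6 (0.68), Sestd1 (0.68) and Anxa3 (0.68). Trpm3 had Pacs2 (0.57), Abcb10 (0.50) and Cep170 (0.49), and Trpm8 had Rnaseh2c (0.58), Slc50a1 (0.51) and Pcdh9 (0.51). Trpm2 was followed by the peptide Ucn2 (0.62), Stard4 (0.57) and Aldh1a3 (0.53), all highest in Sst+Nppb sums.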

How the data were processed

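Single rat sensory neurons were measured in 17 batches, of which 1 held the same values as another and was not used. The authors deposited raw UMI counts for each gene in each cell, made with UMI-tools, STAR and featureCounts on Rnor_6.0, per the submitters' processing notes. Versions and the strand setting are not given in the sources used here, so a channel and an overlapping antisense gene could not be told apart. From these counts, cells with at least 2000 genes were kept, which left 967 of 1040 cells at 4307 to 1514406 UMIs, and no doublet caller was run. Counts were summed per batch and gate and tested in edgeR 4.0.16 (R 4.3.3, limma 3.58.1) with a quasi-likelihood test of gate plus batch. The fit used TMM scaling, a filterByExpr minimum count of 10 and Benjamini-Hochberg adjustment over 12048 genes. Each gate was set against the mean of the other gates, taken over their log2 levels with batch in the fit. A fold change therefore need not match the ratio of the CPM means printed beside it. DESeq2 1.42.0 was an alternative, as were other thresholds, filters, scalings, thinning to 30000 UMIs and leaving out each batch. The design listed Trpm8 among the tests, but its level is fixed by the gates, and it was given none. The text names all 6 members, the 2 largest called changes per list and direction, and the 3 genes most correlated with each member, and some results under this rule are not reported here. The members, gates and lists were chosen with earlier results of these data known. Scripts were tested on simulated data. A count of 0 was taken to allow 3 counts.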

Additional observations from a re-analysis of the deposited data

Results flagged for a closer look

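Among the 19 groups of 4 to 10 sums in which the highest and lowest were checked, 2 held a sum far from the rest, where chance gives about 1 group in 20. In the Trpm8 gate, batch 24 had 50.6 CPM of Trpv1 (25 UMIs, 4 cells), and the next sum had 14.8 CPM. In the Sst+Nppb gate, batch 20 had 11.9 CPM of Trpm2 (15 UMIs, 6 cells), and the next sum had 5.58 CPM.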

How the results depend on the processing

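Of the member fold changes recomputed, 656 kept their direction and their side of the threshold, 28 lost a call, 15 gained one and 24 changed sign, none of them past the threshold in either fit. With the gate threshold at 5%, Trpa1 in Th was at -0.46. With the threshold at 20%, Trpm3 was at -0.47 in Gzmbl3+Lpar3 and -0.16 in Ntsr1+Chrna3, and Trpv1 at 0.34 in Gzmbl3+Lpar3 and 1.10 in Sst+Nppb. With at least 5 cells per sum, Trpm3 was at -0.27 in Clmp, -0.41 in Gzmbl3+Lpar3 and -0.15 in Ntsr1+Chrna3. With limma on mean CPM, Trpa1 in Th was at -0.24 and Trpm3 at -0.18 in Clmp, -0.072 in Nmu+Lad1 and -0.13 in Sst+Nppb. With cells of several gates assigned, Trpv1 was at 0.20 in Ntsr1+Chrna3 and 0.14 in Sst+Nppb. With no replicate block, Trpm3 in Sst+Nppb was at -0.028 and Trpv1 in Ntsr1+Chrna3 at 0.052. Leaving out 1 batch, Trpa1 in Th ran from -0.10 to 0.40, Trpm3 in Gzmbl3+Lpar3 from -0.026 to 0.24 and Trpv1 in Ntsr1+Chrna3 from -1.14 to 0.057. Trpa1 in Sst+Nppb ran from 1.04 to 3.00 on the log2 scale and passed in 11 of 11 alternatives and 16 of 16 fits without 1 batch. Trpv2 in Clmp (-0.39 to -0.23) passed in 9 of 12 alternatives and 4 of 16 fits without 1 batch, and Trpv2 in Gzmbl3+Lpar3 (0.28 to 0.84) in 6 of 12 and 9 of 16. In cells thinned to 30000 UMIs Trpv1, Trpa1 and Trpm3 fell under the count filter. Some gates held too few sums under other thresholds or more cells per sum, and gave no value there.

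Counts of genes called depended more on the processing, and the cause was not tested. Against 1497 genes in the fit as reported, Clmp had 2440 with at least 5 cells per sum, 2259 with the gate threshold at 5% and 777 thinned. Against 318, Ntsr1+Chrna3 had 165 with at least 5 cells, 70 with the threshold at 20%, 196 thinned, 620 with DESeq2, 643 with limma on mean CPM and 649 without a count filter. Sst+Nppb (1529) had 643 with at least 5 cells and 517 thinned, and Gzmbl3+Lpar3 (1143) had 692 thinned. Nmu+Lad1 (248) had 157 with the threshold at 20%, 477 with DESeq2, 500 with limma and 568 without a filter. Th (16) had 184 with the threshold at 5%, 9 thinned, 163 with DESeq2, 188 with limma, 304 without a filter, 125 with cells of several gates assigned and 3 with at least 4000 genes per cell. Trpm8 (24) had 15 thinned, 145 with DESeq2, 104 with limma, 239 without a filter and 631 with cells of several gates assigned. With no replicate block, that is without the batch term, Th had 71 and Trpm8 279. Leaving out 1 batch gave 1342 to 1592 for Clmp, 792 to 1403 for Gzmbl3+Lpar3, 239 to 285 for Nmu+Lad1, 145 to 484 for Ntsr1+Chrna3, 1040 to 1589 for Sst+Nppb, 2 to 26 for Th and 9 to 60 for Trpm8.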
